A study of Mus musculus with 6 samples.

Results

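Stretches of the mitochondrial genome are found in nuclear chromosomes of mammals, where they were inserted as DNA and are no longer used to make the proteins of respiration. On mouse chromosome 1 such an insertion carries 7 annotated pseudogenes, which were chosen here as every row of the deposited gene table on chromosome 1 between the rows of Tubb4b-ps2 and Lmbrd1. These were 7 of 26969 genes, all 7 listed as unprocessed pseudogenes on the minus strand. The mitochondrial genome is transcribed as long RNAs that are cut, mostly at the tRNAs, into shorter RNAs. Most of the mRNAs receive poly(A) tails, so that oligo-dT capture takes them together with nuclear mRNAs. Where a nuclear copy and its mitochondrial source have the same letters, a read from either fits both, and the row to which it is counted depends on the counting rule, which is not given in the sources used here.

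Poly(A)-selected RNA of wild-type mouse chondrocytes, the cells of cartilage, was sequenced as paired ends in 6 libraries, 3 described as mAC and 3 described as mAC_Mito. The series sets chondrocytes against chondrocytes given mitochondria, which its title traces to osteocytes, the cells inside bone. The description field and the other labels contradict each other: libraries described as mAC_Mito have the treatment entry vehicle and libraries described as mAC have the treatment entry mitochondria. Groups are therefore named after the description, which also heads the columns of values, differences are mAC_Mito minus mAC, and no direction is assigned to the treatment. No label says whether replicates were separate cultures or animals, so the tests measure the spread between these libraries, which may be technical.

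The 7 pseudogenes lie within 4663 bases of GRCm38, from 24611535 to 24616197 on chromosome 1. Read along the minus strand they follow the order of the mitochondrial genome, and each matches 1 mitochondrial protein gene in sense. Gm29216 (ENSMUSG00000101249, 24615706 to 24616197) copies bases 1054 to 1545 of mt-Co1, the catalytic subunit of cytochrome oxidase. Gm28661 (ENSMUSG00000102070, 24614885 to 24615565) copies mt-Co2, the subunit that takes electrons from cytochrome c. Gm10925 (ENSMUSG00000100862, 24613974 to 24614651) copies mt-Atp6, a subunit of the proton channel of ATP synthase, and Gm28437 (ENSMUSG00000101111, 24613189 to 24613971) copies mt-Co3, the third core subunit of cytochrome oxidase. The remaining 3 copy membrane subunits of complex I, the NADH dehydrogenase. They are Gm28438 (ENSMUSG00000101939, 24612775 to 24613119) for mt-Nd3, Gm10222 (ENSMUSG00000067736, 24612407 to 24612700) for mt-Nd4l and Gm28439 (ENSMUSG00000100131, 24611535 to 24612410) for bases 1 to 876 of mt-Nd4. Gm28439 and Gm10222 overlap by 4 bases, and their sources overlap as well.

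The first 40 bases of 4 members are shown with the matching bases of the mitochondrial gene, because they contain every base at which a copy and its source differ, beside a pair with no difference. Sequences are from the GENCODE M21 transcripts (GRCm38), 5′ to 3′, and capitals mark bases that differ.
Gm29216 (chr1:24616158-24616197, minus strand): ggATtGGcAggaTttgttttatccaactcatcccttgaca
mt-Co1 (bases 1054 to 1093, plus strand): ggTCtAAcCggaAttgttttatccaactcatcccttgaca
Gm28438 (chr1:24613080-24613119, minus strand): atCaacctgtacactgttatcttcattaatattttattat
mt-Nd3 (bases 1 to 40, plus strand): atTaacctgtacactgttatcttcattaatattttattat
Gm10925 (chr1:24614612-24614651, minus strand): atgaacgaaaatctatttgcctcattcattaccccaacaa
mt-Atp6 (bases 1 to 40, plus strand): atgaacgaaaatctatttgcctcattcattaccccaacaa
Gm10222 (chr1:24612661-24612700, minus strand): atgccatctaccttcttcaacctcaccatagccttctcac
mt-Nd4l (bases 1 to 40, plus strand): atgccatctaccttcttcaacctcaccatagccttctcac

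Gm28661, the member with the highest level, is shown over a longer stretch, since its 240 letters are also the first 240 letters of mt-Co2.
Gm28661 (chr1:24615326-24615565, minus strand): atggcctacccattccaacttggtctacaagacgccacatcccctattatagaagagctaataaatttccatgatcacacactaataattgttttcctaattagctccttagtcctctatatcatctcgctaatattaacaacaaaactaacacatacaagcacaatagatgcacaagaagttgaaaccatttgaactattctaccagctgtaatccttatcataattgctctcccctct

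Over the 4149 bases of the 7 transcripts, 4142 (99.8%) were identical to the mitochondrial gene when each copy was laid along its source without gaps. Gm28661, Gm10925, Gm28437, Gm10222 and Gm28439 were identical over their whole length of 681, 678, 783, 294 and 876 bases. Gm28438 had 1 difference in 345 bases, T3C, and Gm29216 had 6 in 492 bases, T1056A, C1057T, A1059G, A1060G, C1062A and A1066T (positions counted from 1 at the first base of the mitochondrial gene, whose base is given first). All 6 of these fall in the first 13 bases of Gm29216, and the remaining 479 bases were identical to the end of mt-Co1. Of the 3456 windows of 100 bases that the 7 transcripts contain, 3440 (99.5%) also occur in a mitochondrial gene, and the 16 that do not are 13 at the start of Gm29216 and 3 at the start of Gm28438. Gm28661, Gm10925, Gm28437, Gm10222 and Gm28439 hold no window of that length that is theirs alone.

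The 7 copies carried high counts in each library. They summed to 1202902, 926254 and 584917 counts in libraries mAC 1, 2 and 3 and to 1012045, 518310 and 614014 in mAC_Mito 1, 2 and 3. These are 2.03%, 1.35% and 0.937% of all counts in the mAC libraries and 1.59%, 0.862% and 1.001% in the mAC_Mito libraries, from totals of 59116068 to 68378213 counts. mAC 1 and mAC_Mito 1 were the highest library of their group, and the groups overlapped. The nearest genes in the table, outside the insertion on either side, had no such levels. The pseudogene Tubb4b-ps2 had 1 to 16 counts per library. Lmbrd1, which encodes a lysosomal membrane protein that acts in cobalamin transport, had 7.73 ± 1.02 FPKM in the mAC libraries against 7.65 ± 0.229 in the mAC_Mito libraries (SD, n = 3). Col19a1, a minor collagen that lies beyond Tubb4b-ps2 and was added outside the rule for flanking rows, had 0 to 41 counts. No other row of the table covers the 7 genes.

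**Figure D1:**
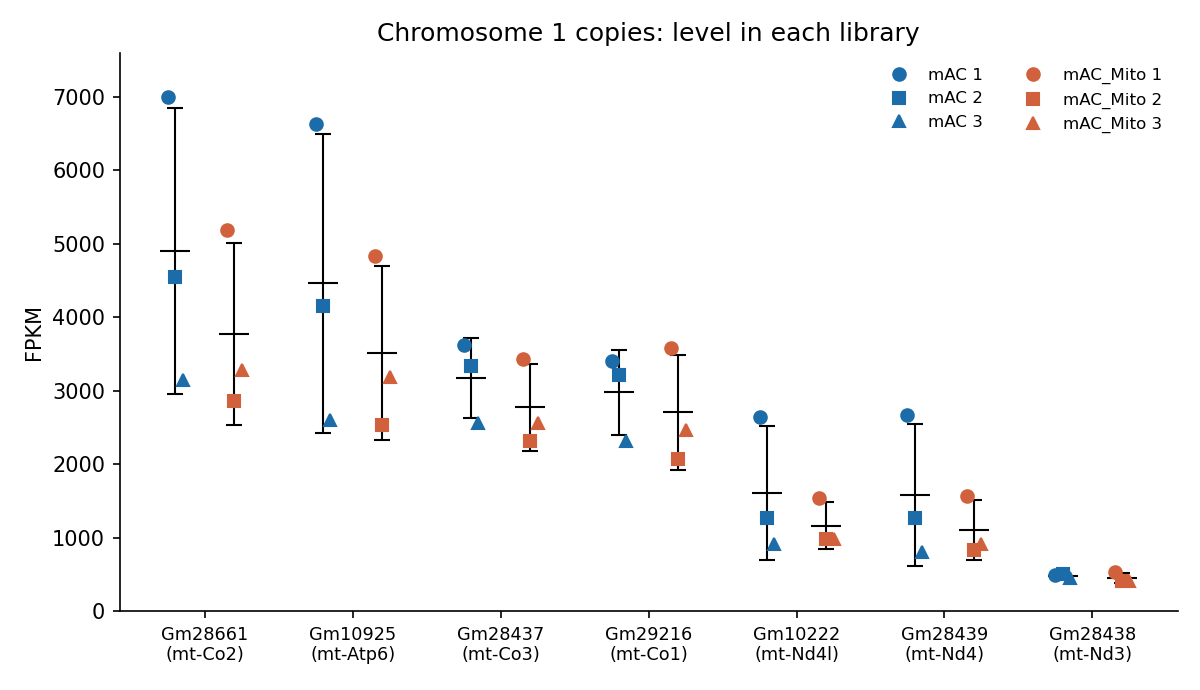
FPKM of the 7 chromosome 1 copies, with the mitochondrial gene each copies in brackets, in 3 mAC libraries (blue) and 3 mAC_Mito libraries (orange). Symbols are libraries, black bars are the group mean with its SD. In 5 of the 7 copies mAC 1 is the highest library, and the groups overlap in all 7.

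Levels between genes are compared as FPKM, in which counts are divided by the length of the gene and the depth of the library. The copies of cytochrome oxidase and ATP synthase genes were highest. Gm28661, the mt-Co2 copy, was at 7001, 4545 and 3151 FPKM in mAC 1, 2 and 3, against 5183, 2866 and 3276 FPKM in mAC_Mito 1, 2 and 3. Gm10925, the mt-Atp6 copy, was at 6637, 4147 and 2602 FPKM in the mAC libraries and 4835, 2535 and 3189 FPKM in mAC_Mito. In both, mAC 1 was highest, mAC_Mito 1 second and mAC_Mito 2 lowest. Gm28437, the mt-Co3 copy, varied less, at 3618, 3340 and 2566 FPKM in the mAC libraries and 3436, 2321 and 2560 FPKM in mAC_Mito. Gm29216, the copy of the end of mt-Co1, was at 3401, 3215 and 2312 FPKM in the mAC libraries and 3577, 2066 and 2469 FPKM in mAC_Mito, and there mAC_Mito 1 and not mAC 1 was highest.

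The copies of complex I genes were lower and differed most in how far the libraries stood apart. Gm10222, the mt-Nd4l copy, was at 2635, 1270 and 912 FPKM in the mAC libraries and 1537, 976 and 978 FPKM in mAC_Mito. Gm28439, the copy of the start of mt-Nd4, was at 2671, 1261 and 809 FPKM in the mAC libraries and 1567, 829 and 915 FPKM in mAC_Mito. In both genes mAC 1 stood far above the other 5 libraries and mAC 3 was lowest. Gm28438, the mt-Nd3 copy, was the lowest member, at 485, 507 and 449 FPKM in the mAC libraries and 529, 405 and 404 FPKM in mAC_Mito. The ratio of the highest to the lowest library was 1.31 for Gm28438, 1.56 for Gm28437 and 1.73 for Gm29216, against 2.44 for Gm28661, 2.62 for Gm10925, 2.89 for Gm10222 and 3.30 for Gm28439.

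By mean FPKM over the 6 libraries the order was Gm28661, Gm10925, Gm28437, Gm29216, Gm10222, Gm28439 and Gm28438. Gm28661 stood above Gm10925 in 6 of 6 libraries, by 1.03 to 1.21 times. Gm28437 stood above Gm29216 in 5 of 6, and Gm10222 above Gm28439 in 4 of 6, so neither of these neighbours was set apart beyond the spread between libraries. The step from Gm29216 down to Gm10222 held in 6 of 6 libraries (1.29 to 2.53 times), as did the step from Gm28439 down to Gm28438 (1.80 to 5.51 times).

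Of the 5 copies of nearly a whole gene, 4 were close to the gene they copy, at 97.99% to 100.2% of its FPKM, and Gm10925 stood above it, at 106.2% to 109.5%. For Gm28661, the count was 98.2%, 97.8% and 98.3% of the mt-Co2 count in mAC 1, 2 and 3, against 98.1%, 98.0% and 97.7% in mAC_Mito 1, 2 and 3. For Gm28437 it was 98.5% to 99.02% of the mt-Co3 count, for Gm28438 97.1% to 97.6% of the mt-Nd3 count and for Gm10222 98.6% to 99.2% of the mt-Nd4l count. The counts of these 4 copies were thus slightly below those of their source in every library, whether the library was rich or poor in mitochondrial RNA. Per length, Gm10222 was slightly above mt-Nd4l in 4 of 6 libraries, and the other 3 were below their source in all 6. The ratio moved between libraries less than the levels did: its coefficient of variation over 6 libraries was 0.183% for Gm28437, 0.22% for Gm10222, 0.226% for Gm28438 and 0.228% for Gm28661, while the FPKM of the same genes varied by 18.6%, 47.4%, 11.3% and 36.5%. If the counts of copy and source were independent of each other, counting error alone would give the ratio a variation of 0.35%, 0.883%, 1.32% and 0.322% for these 4 genes in the same order, and the observed values were smaller than these.

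**Figure D2:**
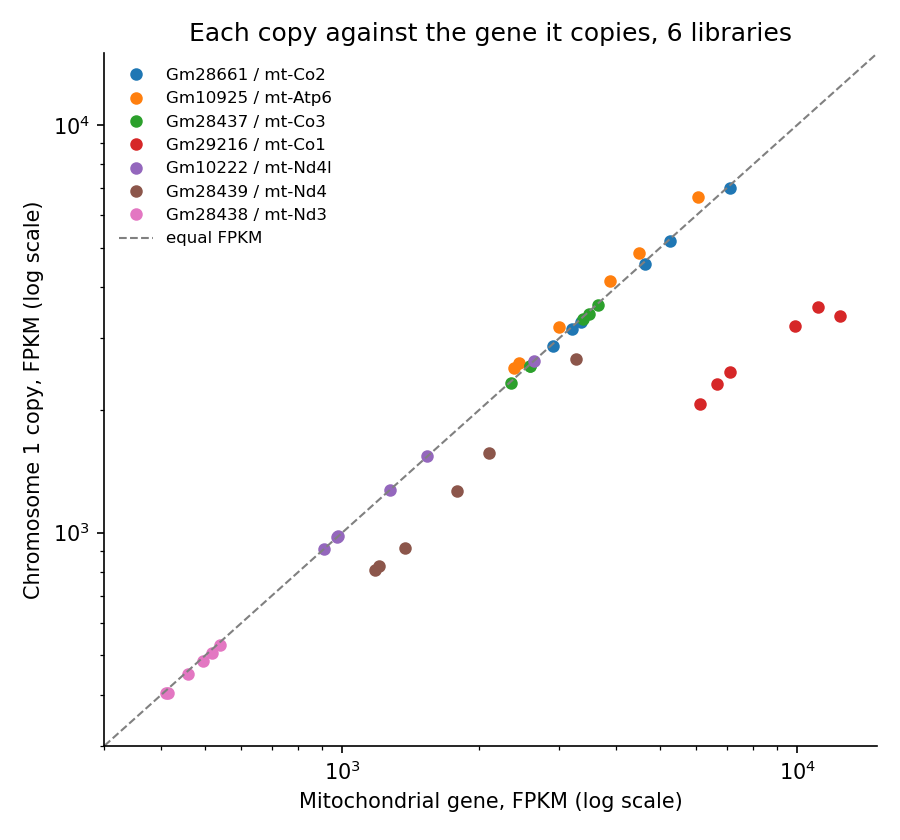
FPKM of each chromosome 1 copy against FPKM of the mitochondrial gene it copies, both on log axes, with 1 point per library and a dashed line at equal values. Copies of nearly whole genes lie along the line, Gm10925 slightly above it, and the partial copies Gm28439 and Gm29216 lie below it.

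Gm10925 was the only one of the 7 whose count exceeded that of its source, with 109%, 107% and 106% of the mt-Atp6 count in mAC 1, 2 and 3, against 107%, 106% and 106% in mAC_Mito 1, 2 and 3. The excess was 6319 to 26218 counts per library and was highest in mAC 1. The coefficient of variation of this ratio was 1.12%, larger than the 0.346% from independent counting. The genes mt-Atp8 and mt-Atp6 overlap in the mitochondrial genome, where mt-Atp8 ends at position 7969 and mt-Atp6 begins at position 7927. On chromosome 1 the 233 bases between Gm10925 and Gm28661 belong to no row of the table, and their sequence was not analysed here. How far the overlap bears on the excess was not tested.

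The partial copies did not follow the length they cover. Gm28439 spans 63.6% of mt-Nd4 and had 51.9%, 44.9% and 43.7% of its count in mAC 1, 2 and 3, against 47.3%, 43.9% and 42.4% in mAC_Mito 1, 2 and 3. Gm29216 spans 31.8% of mt-Co1 and had 8.74%, 10.4% and 11.0% of its count in the mAC libraries and 10.3%, 10.8% and 11.1% in the mAC_Mito libraries. Per length, Gm28439 was at 66.7% to 81.7% of mt-Nd4 and Gm29216 at 27.4% to 34.8% of mt-Co1. mAC 1 lay at an extreme for both, the highest library for Gm28439 and the lowest for Gm29216. The coefficient of variation of the ratio was 7.61% and 8.38%, against 0.453% and 0.34% from independent counting alone.

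Other nuclear matches to mitochondrial genes, chosen after the values above were seen, had far lower levels. Among GENCODE transcripts, 8 nuclear genes outside the insertion matched a mitochondrial gene over at least 300 bases at 90% identity or more, and 6 of them were in the table, at 92.4% to 97.6% identity. Gm13340 on chromosome 2 (22588103 to 22589647), which matches the whole of mt-Co1 at 97.6%, had 518 to 1533 counts and 0.0742% to 0.113% of the FPKM of mt-Co1. Gm13341 (22587291 to 22587962), beside it, matches mt-Co2 at 95.9% and had 358 to 909 counts, against 132105 to 336246 for Gm28661. The highest of the 6 in any library reached 0.498% of its source, whereas the lowest value among the 7 copies on chromosome 1 was 27.4%. Gm11407 and Gm11408 on chromosome 4 and Gm4076 on chromosome 13 had at most 41 counts.

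**Figure D3:**
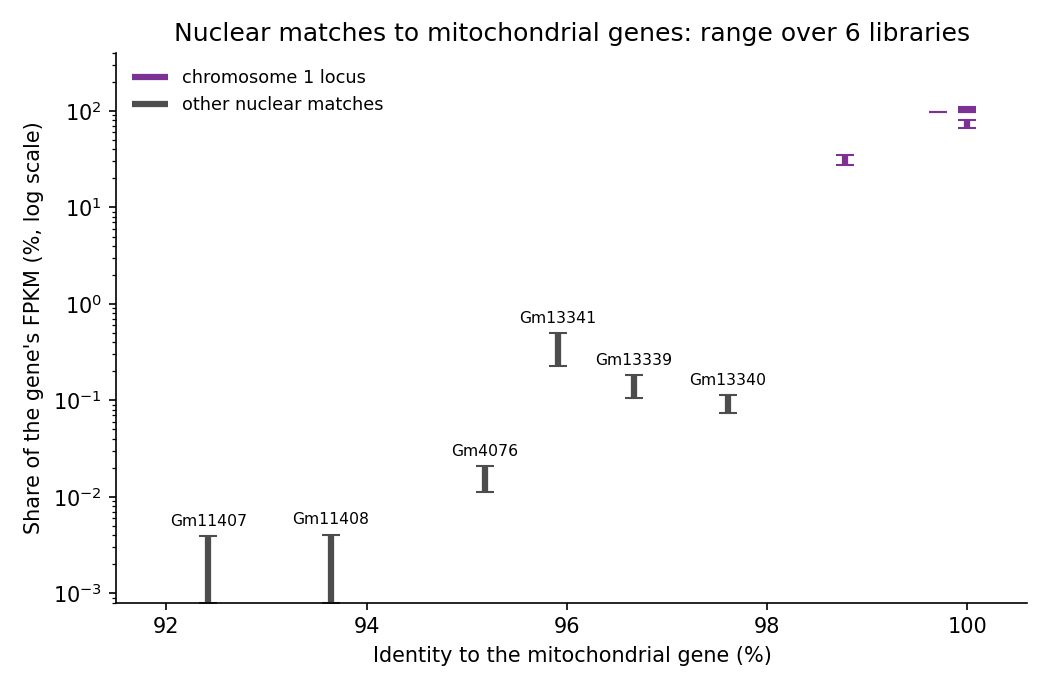
Share of the FPKM of the mitochondrial gene (log axis) against identity to it, for the chromosome 1 copies (purple) and 6 other nuclear matches (grey). Each bar runs from the lowest to the highest of 6 libraries, and bars that touch the bottom axis include libraries with 0 counts; the chromosome 1 copies lie at 27.4% or above and the others at 0.498% or below.

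No difference between the groups passed the test for any copy. In the edgeR quasi-likelihood fit 0 of 7 members passed, 0 had an unadjusted p under 0.05 (3.19% of all genes tested did), and DESeq2 and limma called 0, in a comparison in which 2 of 17645 genes (0.0113%) passed edgeR at an adjusted p of 0.05. In CPM with TMM scaling the groups overlapped in all 7, whereas they did not overlap for 8.31% of genes tested. Gm28661 was at 4899 ± 1949 FPKM in the mAC libraries and 3775 ± 1236 FPKM in the mAC_Mito libraries (SD, n = 3). Its log2 fold change was -0.41, standard error 0.32 (edgeR, Benjamini-Hochberg adjusted p = 0.99992). Gm28439, with the lowest fold change of the 7, was at 1581 ± 971 and 1104 ± 403 FPKM, a log2 fold change of -0.56 with a 95% interval of -1.52 to 0.40. Gm28438, with the value nearest 0, was at 480.2 ± 29.4 and 446 ± 71.7 FPKM, a log2 fold change of -0.12 with a 95% interval of -0.45 to 0.20. All 7 values were below 0, with a median of -0.37, against 0.0016 for all genes tested. The same held for the 13 mitochondrial mRNAs, which include the sources, with 13 below 0 and a median of -0.42. The intervals of all 7 copies included 0, and their unadjusted edgeR p ran from 0.214 (Gm10222) to 0.526 (Gm29216).

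The direction rested on mAC 1. Without mAC 1, which had the highest level of 5 copies, 5 of the 7 log2 fold changes were above 0, and the 7 ran from -0.07 to 0.13. Without mAC_Mito 2, Gm29216 turned to 0.024 and the other 6 stayed below 0. For the sum of the 7 copies the mean log2 CPM, the level per library size with TMM scaling, was 13.7 ± 0.608 in mAC and 13.4 ± 0.47 in mAC_Mito (SD, n = 3), a difference of -0.31 that became -0.00083 without mAC 1.

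**Figure D4:**
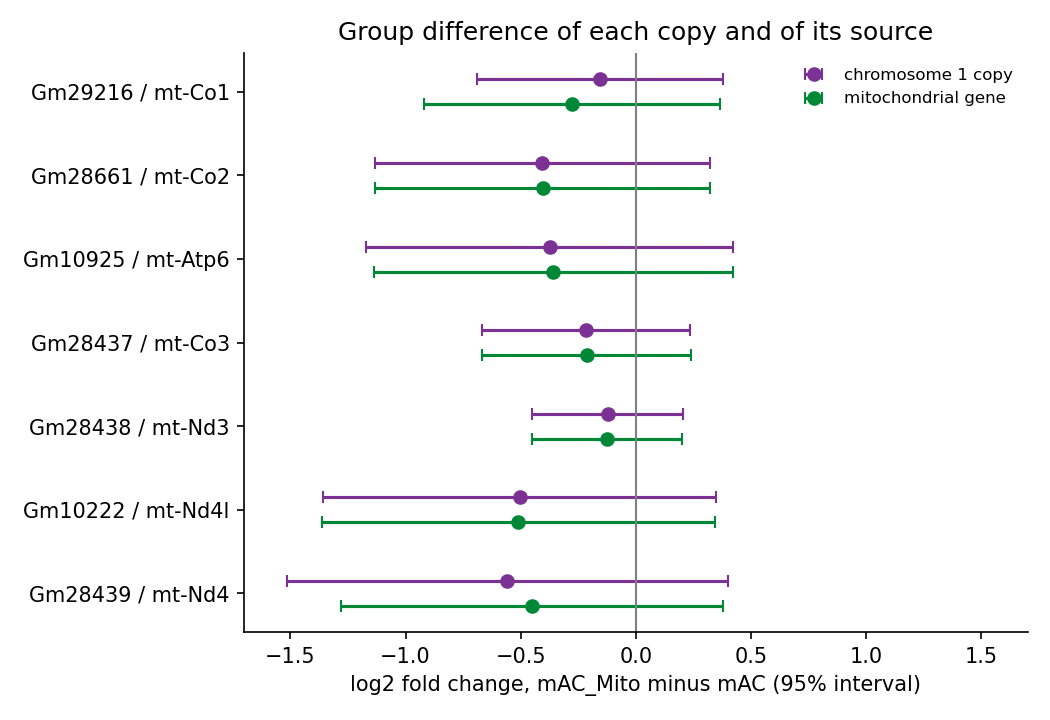
log2 fold change (mAC_Mito minus mAC) of each copy (purple) and of the mitochondrial gene it copies (green), with 95% intervals from edgeR's quasi-likelihood fit. All 14 intervals cross 0, and copy and source nearly coincide except for Gm29216 and Gm28439. Copy and source can share reads.

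Copy and source gave nearly the same fold change. For 5 of the 7 copies all bases match the source, so a read from either fits both rows. The values of a pair are therefore not independent measures, and their likeness cannot tell RNA of the copy from RNA of the source. The copy minus the source was -0.0019 for Gm28661 against mt-Co2, -0.0023 for Gm28437 against mt-Co3, 0.0034 for Gm28438 against mt-Nd3, 0.0051 for Gm10222 against mt-Nd4l and -0.016 for Gm10925 against mt-Atp6 on the log2 scale. It was larger for the partial copies, 0.12 for Gm29216 against mt-Co1 and -0.11 for Gm28439 against mt-Nd4. The ratio of copy count to source count overlapped between the groups in 6 of the 7 ratios compared. The exception was Gm10222, whose share of the mt-Nd4l count was 98.8% ± 0.2 in mAC and 99.1% ± 0.0673 in mAC_Mito (SD, n = 3). It was singled out because its groups did not overlap, so no test of it is given. In CPM, levels did not overlap for 8.31% of all genes tested, and no such share was worked out for ratios. Set against all 13 mitochondrial mRNAs, the 7 copies together had 27.8%, 28.8% and 29.9% of their counts in mAC 1, 2 and 3, and 28.4%, 29.6% and 29.5% in the numbered mAC_Mito libraries, and the share was lowest in mAC 1, where both were highest.

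The copies also followed 5 mitochondrial mRNAs with no copy among the 7. mt-Atp8, which overlaps mt-Atp6 and also has no row among the 7, was left out of this set. mt-Nd1, mt-Nd2, mt-Nd5, mt-Nd6 and mt-Cytb, subunits of complex I and of complex III, took 2.74%, 1.51% and 0.98% of the counts of mAC 1, 2 and 3 and 1.85%, 0.939% and 1.095% of those of mAC_Mito 1, 2 and 3. The summed copies rank the 6 libraries in the same order. Over the 6 libraries the Pearson r of log2 CPM between the summed copies and these 5 genes was 0.997, and 0.996 without mAC 1 and mAC_Mito 1, the libraries farthest from the median. For single copies, r with the same 5 genes ran from 0.842 (Gm28438) and 0.922 (Gm29216) to 0.997 (Gm28661). These correlations are descriptions over 6 libraries that share depth and scaling between both measures. Reads of a copied mitochondrial gene can also fit its copy, so r cannot tell RNA of the copies from RNA of their sources. Permutation p-values of the correlations are not given, because the members were chosen with results known.

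**Figure D5:**
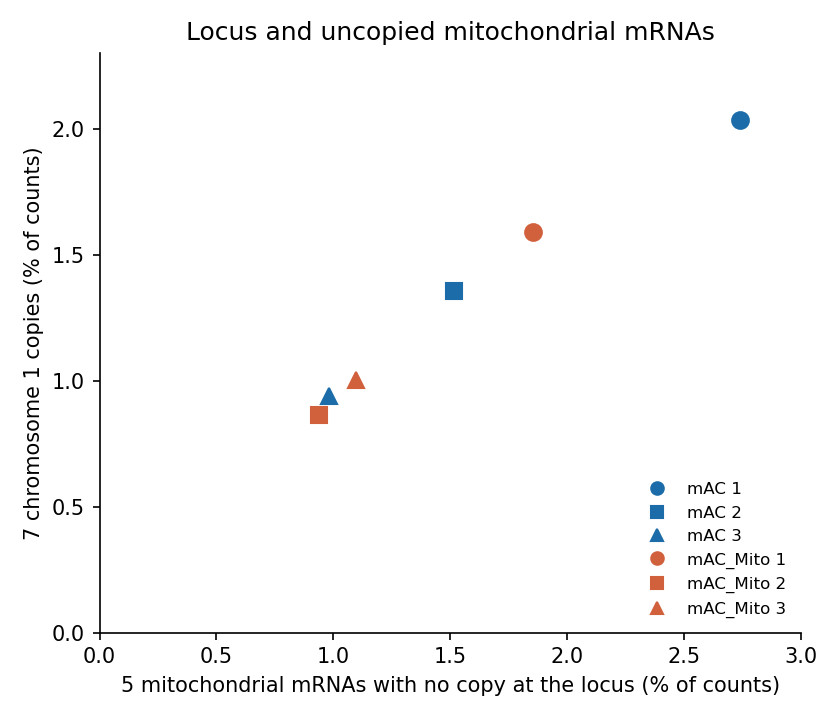
Share of counts of the 7 chromosome 1 copies against the share of 5 mitochondrial mRNAs with no copy among the 7 (mt-Atp8 left out), with 1 point per library. mAC 1 is highest on both axes (2.03% and 2.74%) and mAC_Mito 2 lowest (0.862% and 0.939%), and the groups are interleaved.

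Outside the mitochondrial genome, the 10 tested genes whose log2 CPM followed the summed copies most closely had r of 0.995 to 0.999 over the 6 libraries. They were Thy1, a cell surface glycoprotein of stromal cells and neurons, Tsg101, of the endosomal sorting machinery, Fech, which inserts iron to make haem in mitochondria, the arginine methyltransferase Prmt5, the kinase Csnk1g3, the anchoring protein Akap7, the chromatin remodeller subunit Ino80e, the membrane protein Tmem184c and the predicted loci Gm49450 and Gm7367. Among 17602 genes compared, 311 had r above 0.95, as did 18 of the 36 tested genes of the mitochondrial genome. The range of the summed copies was 1.31 on the log2 scale from the lowest to the highest library, and that of these 10 genes 0.50 (Ino80e) to 3.07 (Gm49450). Thy1 had its highest levels, 45.9 and 38.4 FPKM, in mAC 1 and mAC_Mito 1, and 27.7 FPKM in its lowest library.

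No gene of the machinery that makes and processes mitochondrial RNA passed the test. Of 28 tested genes of mitochondrial transcription and RNA processing, 0 passed the edgeR test in either direction, 0 had an unadjusted p under 0.05, and DESeq2 and limma called 0. Over all genes tested, 0.0113% passed edgeR and 3.19% had an unadjusted p under 0.05, so few were to be found in a list of this size. The median log2 fold change was -0.04, against 0.0016 for all genes tested. Polrmt and Tfam are named for their roles, after their values were seen. Polrmt, the mitochondrial RNA polymerase, was at 3.39 ± 0.323 FPKM in the mAC libraries and 3.88 ± 0.291 in mAC_Mito, and Tfam, which packages mitochondrial DNA and starts its transcription, at 7.17 ± 1.83 and 6.79 ± 0.809 FPKM (SD, n = 3). Rexo2, an exonuclease that clears short mitochondrial RNA and the most abundant gene of the list, was at 52.2 ± 4.21 and 48.7 ± 3.4 FPKM. Slirp, which with Lrpprc stabilises mitochondrial mRNAs, was at 6.11, 9.24 and 12.1 FPKM in mAC 1, 2 and 3, against 7.81, 11.2 and 9.27 FPKM in mAC_Mito 1, 2 and 3. It is named after its values were seen, because its order over the libraries was the reverse of that of the summed copies, apart from mAC 3 and mAC_Mito 2, which traded places. Tfam too was lowest in mAC 1 (5.46 FPKM) and highest in mAC 3 (9.09 FPKM). How many of the 28 genes had such an order was not counted. In CPM with TMM scaling the groups did not overlap for 2 of the 28, Mterf3 and Fastkd2, beside 8.31% of all genes. Both are named after their values were seen, and in FPKM their groups overlapped.

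Of the long RNAs that stay in the nucleus, 0 of 5 passed the edgeR test and 1, Malat1, had an unadjusted p under 0.05, while DESeq2 and limma called 0. Such a p was found for 3.19% of all genes tested, and Malat1 is named after its values were seen. Its mean level was 10.4 ± 4.3 FPKM for mAC and 6.07 ± 1.27 FPKM for mAC_Mito (SD, n = 3). The edgeR fit gave Malat1 a log2 fold change of -0.79 and an adjusted p of 0.99992. Its highest level, 14.7 FPKM, was in mAC 3, where the copies were low. The next highest, 10.2 FPKM, was in mAC 1, where the summed copies were highest. Meg3, the most abundant of the 5, was at 12.4 ± 0.901 and 11.4 ± 1.45 FPKM.

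Chondrocyte markers were abundant, with a summed level of 1518 to 1787 FPKM in the mAC libraries and 1374 to 2264 in mAC_Mito over 6 genes led by Col2a1. Summed levels of the other marker lists were 6.96 to 9.73 FPKM for osteoblasts and osteocytes (Ibsp highest), 59.6 to 108 for macrophages (Lyz2), 26.2 to 39.3 for skeletal muscle (Tnnt3), 45.8 to 80.5 for adipocytes (Fabp4) and 0.202 to 0.341 for endothelium (Cdh5). No marker found in the table was at 0 in all 6 libraries, and 0 of 27 tested markers passed the edgeR test, 0 had an unadjusted p under 0.05 and DESeq2 and limma called 0. Over all genes tested, the edgeR shares were 0.0113% passing and 3.19% with such an unadjusted p. The osteocyte markers Sost and Dmp1 were too low to be tested.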

How the data were processed

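The members and all lists were chosen with earlier results of these data known. The authors deposited a raw count and an FPKM value per gene and library, per the file headers. Named in the submitters' processing notes, without roles, are Bowtie 0.12.2, StringTie 1.3.0, HISAT2 2.0 and the build mm8. Not given in the sources used here: strand use, and the treatment of multi-mapped reads. Positions are as in the table, and despite the mm8 of the notes most are those of GRCm38. Of 26902 genes shared with GENCODE M21 (GRCm38), 24147 had the same start and end there, among them all 7 members.

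Groups were compared on counts with edgeR 4.0.16 in R 4.3.3 (filterByExpr, minimum count 10 and total 15, TMM, quasi-likelihood test, two-sided, Benjamini-Hochberg adjustment over 17645 genes, threshold 0.05). Standard errors and 95% intervals come from the F statistic. DESeq2 1.42.0 and limma 3.58.1 on log2(FPKM + 1) were alternatives. On simulated counts of 19192 genes for this comparison, edgeR recovered 55 of 100 genes changed 2-fold and 76 of 100 changed 4-fold and made 11 false calls among the unchanged genes. Copies were laid along GENCODE M21 transcripts of mitochondrial genes without gaps, and other nuclear matches were found with blastn 2.17.0. Genome-wide matches were not used here, since only transcripts were given. The summed copies, a score over members chosen with results known, are given without a p-value. Likeness used Pearson r of log2 CPM with a prior count of 2. Genes named by rule were all members, the mitochondrial mRNAs and rRNAs, and the 10 genes most like the summed copies. The flanking rows and the most abundant gene of each list were also named by rule. Others are said to be chosen after their values were seen, except Col19a1, which was added beside the flanking rows. No 2 libraries agreed within sampling noise (chi-square per degree of freedom at least 23.6). The depth was 59116068 to 68378213 counts per library.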

Additional observations from a re-analysis of the deposited data

How the results depend on the processing

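For the 7 copies, the 7 alternatives that kept all libraries (another scaling, totals without mitochondrial genes and copies, DESeq2, limma at 2 pseudocounts, no filter and a replicate block) left all 7 log2 fold changes below 0 and none past the threshold. With 1 library left out they ran from -0.73 to 0.096 for Gm10925, -0.76 to 0.0089 for Gm28661, -0.45 to -0.058 for Gm28437, -0.31 to -0.035 for Gm28438, -0.81 to 0.13 for Gm10222, -0.95 to 0.13 for Gm28439 and -0.46 to 0.024 for Gm29216. The log2 CPM difference of the summed copies ran from -0.61 to -0.00083 and the log2 ratio to the 13 mitochondrial mRNAs, 0.015, from -0.011 to 0.042. The correlation with those mRNAs ran from 0.99978 to 0.99998. It is a description only, since the 13 mRNAs include the 7 genes copied, whose sequence the copies share. The log2 ratio turned to -0.015 against the copied genes alone, a change within the spread between libraries. It was 0.06 against the 5 mRNAs without a copy (mt-Atp8 left out), an alternative chosen after seeing the data. Over all genes, edgeR called 1 higher and 1 lower, DESeq2 2 and 2, limma 0 and 0 at pseudocount 1 and 1 and 0 at 0.1, and edgeR without a filter 0 and 0. With a library left out, 0 to 3 were higher and 0 to 1 lower. Between same-numbered libraries, deviations from the group mean had r of 0.126, -0.059 and -0.012, against -0.14 to 0.154 between differently numbered ones. With 3 libraries per group, these values cannot tell whether the replicate number marks a pairing. With the replicate block edgeR called 1 and 1, the summed copies differed by -0.31 and the log2 ratio by 0.015. Each of the 7 copies had 9460 counts or more in every library.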

Other observations

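Mitochondrial tRNA genes, which are too short to hold most reads of a poly(A) library and have no row between the 7 copies, did not all follow the copies. Of 22 in the table, 21 passed the count filter, of which 9 had r above 0.9 with the summed copies over the 6 libraries and 5 had r below 0. mt-Tl1, next to the mt-Nd1 mRNA, had 2911, 1764 and 845 counts in libraries mAC 1, 2 and 3 and 1939, 763 and 1010 in mAC_Mito 1, 2 and 3, the order of the copies (r = 0.997). Genes annotated on either strand were found at both ends of the range. Strand use in the counting is not given, so these counts need not come from RNA of the annotated strand. mt-Te, mt-Tp, mt-Ts1 and mt-Tq, annotated on the strand opposite to mt-Tl1, had r of 0.981, 0.953, 0.95 and 0.945. Of these, mt-Ts1 starts at position 6870, inside mt-Co1, which ends at position 6872 on the other strand. The lowest r were those of mt-Ts2 (-0.85) and mt-Th (-0.84), on the strand of mt-Tl1, with 5 to 23 and 8 to 28 counts. mt-Tc, on the opposite strand, had 128, 325 and 364 counts in the mAC libraries and 261, 272 and 273 in mAC_Mito (r = -0.81), so that mAC 1, the highest library for 5 of the 7 copies, was its lowest. The neighbouring mt-Tn, on the same strand as mt-Tc, had 355, 582 and 590 counts in the mAC libraries and 597, 416 and 479 in mAC_Mito (r = -0.22). These genes were chosen after their values were seen, and the values carry no test.

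The mitochondrial rRNAs, with no copy among the 7, varied less between libraries than most copies did. mt-Rnr1 was at 111 to 160.1 FPKM and mt-Rnr2 at 117 to 160.1 FPKM, a ratio of the highest to the lowest library of 1.44 and 1.37, against 1.31 to 3.30 for the 7 copies.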
